A study of Mus musculus with 2 samples.

Results

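The miR-30 family guide strands, mmu-miR-30a, mmu-miR-30b, mmu-miR-30c, mmu-miR-30d and mmu-miR-30e, were measured in 2 tissues of mouse embryos at E13.5. They were taken by name from the arrays, as 5 of 696 mouse miRNAs measured. The 3rd mammary gland (here the gland) is at this stage an epithelial bud in dense mammary mesenchyme, and the inter mammary gland region (here the flank) is the body wall that lies between glands 3 and 4. Both tissues came from untreated ICR embryos, a stock of outbred mice, and the sources used here do not give how many embryos each RNA sample held. For either tissue, 100 ng of Cy3-labelled total RNA went onto 1 Agilent 1-colour miRNA array. With 1 array per tissue there was no replicate, so no test between gland and flank was run, and every error given is the technical spread between spots of the same array.

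The transcript of a miRNA gene is cut to a hairpin whose guide strand enters the Argonaute protein and whose passenger strand, marked with a star on this array, is mostly discarded. The guide pairs with target mRNAs mainly through its seed, bases 2 to 8 from the 5′ end, so that members of a family with the same seed share many targets. The miR-30 family is abundant in kidney, heart and many epithelia. Its known targets include the transcription factors Snai1, which drives epithelial cells toward a mesenchymal state, and Runx2, which drives bone formation, and the matricellular growth factor Ctgf.

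The genes of the 5 guide strands sit in 3 pairs in the mouse, here placed by the RefSeq annotation of GRCm38.p6. That annotation also has a gene named Mir30f next to Mir30e, which is not among the genes of these guide strands. Mir30a and Mir30c-2 are neighbours on chromosome 1, Mir30e and Mir30c-1 are neighbours within the gene Nfyc, a subunit of the NF-Y transcription factor, on chromosome 4, and Mir30b and Mir30d are neighbours on chromosome 15. The RefSeq sequences used here held miR-30a, miR-30c and miR-30e of the 5 guide strands. They are shown because the array must tell them apart by the bases after a common start, with the seed in capitals:
miR-30a: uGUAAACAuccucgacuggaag
miR-30c: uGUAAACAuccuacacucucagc
miR-30e: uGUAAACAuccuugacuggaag
In GRCm38.p6 miR-30a lies at chr1:23272274-23272295 on the plus strand and miR-30e at chr4:120772660-120772681 on the minus strand. miR-30c lies at chr1:23291714-23291736 on the plus strand and, with the same sequence, at chr4:120769584-120769606 on the minus strand, so its probes read both genes together. miR-30a and miR-30e differ by a single base, C13U, counted from the 5′ end with the base of miR-30a first. miR-30a and miR-30c share their first 12 bases. The same seed was found under 4 of the 1679 mature names of these sequences, which lack miR-30b and miR-30d. The name outside the miR-30 family was miR-384-5p. How far a probe for 1 member also reads another was not tested.

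All 5 guide strands were detected in both tissues, well above the dimmest signals of the arrays. They were read by 11 probes, each printed as several spots, and 99 of 99 spots in the gland and 98 of 98 in the flank were well above background by the scanner software's own flag. The lowest of these spots had a background-subtracted signal of 144, and the brightest negative control spots had 17.3 and 19.2. Before any scaling between arrays, every member had the higher signal in the gland. Most other miRNAs leaned the same way at that step. The median log2 ratio, gland over flank, of the 284 miRNAs detected on both arrays was 0.18 without scaling. In whole tissue, fewer cells of a type and less RNA per cell cannot be told apart. The signal units are arbitrary fluorescence, and the signals of different members were not set against each other, since probes differ in how strongly they bind.

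mmu-miR-30c, made from both the chromosome 1 and the chromosome 4 genes, had a signal of 1142 ± 16.7 (SE over 20 spots) in the gland and 769.6 ± 7.60 (SE over 20 spots) in the flank. mmu-miR-30a, from chromosome 1, had 548.7 ± 13.7 and 453.7 ± 9.52 (SE over 20 spots in each). mmu-miR-30e, from chromosome 4, had 595.8 ± 11.1 (SE over 20 spots) and 544.0 ± 8.08 (SE over 18 spots). As a log2 ratio without scaling, the gap between the tissues was widest for miR-30c, 0.57, and narrowest for miR-30e, 0.13. The chromosome 15 pair lay between them, at 0.38 for miR-30b and 0.43 for miR-30d. mmu-miR-30b had 625.2 ± 11.2 in the gland and 480.8 ± 6.53 in the flank (SE over 20 spots in each). mmu-miR-30d had 296.1 ± 3.98 (SE over 19 spots) and 220.4 ± 2.54 (SE over 20 spots). All 5 differences before scaling were larger than the spot errors, but a factor common to a whole array is still in them.

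To remove that factor, the signals of an array were divided by the 75th percentile among probes that both arrays detected, 786.4 for the gland and 718.5 for the flank. After this scaling no member differed by as much as 1.5-fold. At that threshold 0 of 5 were higher and 0 of 5 lower in the gland, where of the 284 miRNAs detected on both arrays 2.11% were higher and 9.15% were lower. The highest ratio of the gland over the flank was that of miR-30c, 1.36-fold, a log2 ratio of 0.44 ± 0.025 (SE over spots, as for the following). miR-30d followed with 1.23-fold (0.30 ± 0.026) and miR-30b with 1.19-fold (0.25 ± 0.033). miR-30a was 1.11-fold (0.14 ± 0.047), and miR-30e was level between the tissues at 1.0-fold (0.0012 ± 0.034). These low ratios moved with the processing, from 0.083 to 0.31 for miR-30a and from -0.060 to 0.16 for miR-30e over 15 alternatives, the upper ends with unscaled total signals of the scanner software.

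**Figure D1:**
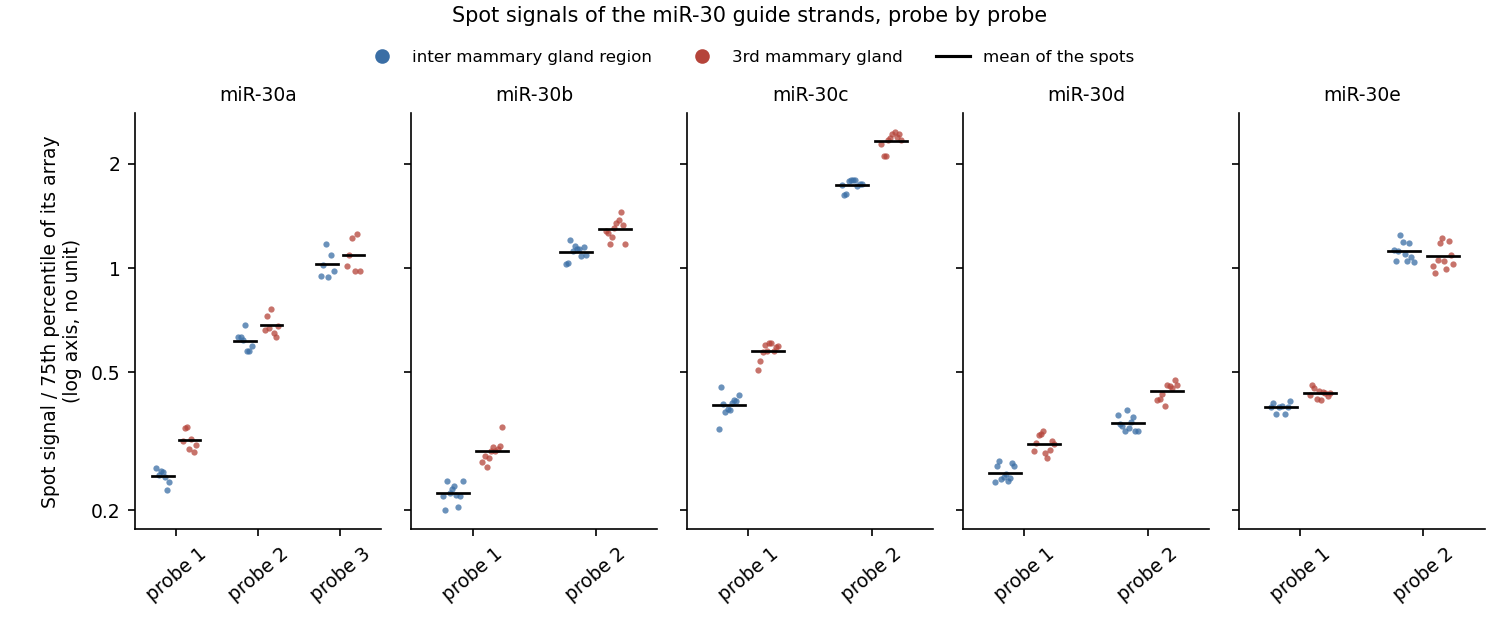
Each point is 1 spot of 1 probe of a miR-30 guide strand, in the flank (blue) or the gland (red), with its signal divided by the 75th percentile of its array on a log axis; black bars are means over spots, and probes are numbered from the dimmest. Both probes of miR-30c and both of miR-30d have every red spot above every blue spot, and the brighter probe of miR-30e does not.

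The spots showed how even these ratios were across the array. Where a spot of a miR-30c probe was measured at the same place on both arrays, it was brighter in the gland at 20 of 20 places, from 1.19-fold to 1.56-fold with a median of 1.38. The count was 19 of 19 places for miR-30d, 20 of 20 for miR-30a and 19 of 20 for miR-30b, and the fold ran from 1.11 to 1.36, from 1.0 to 1.37 and from 0.978 to 1.47. For miR-30e it was 11 of 18 places, from 0.903-fold to 1.15-fold with a median of 1.02. Places were not counted in this way over all miRNAs. All places of a member share the same RNA samples and divisors, so they are not replicates of a tissue. In 7 of the 11 probes of the family all spots of the gland lay above all those of the flank, and in 0 of 11 below. Among all 555 probes that both arrays detected, 19.3% lay above and 16.8% below in this way. The 7 probes were both of miR-30c, both of miR-30d and the dimmest of miR-30a, of miR-30b and of miR-30e.

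The probes of a member did not give quite the same ratio. The log2 ratio ran from 0.09 to 0.35 over the 3 probes of miR-30a, from 0.21 to 0.41 for miR-30b, from 0.42 to 0.52 for miR-30c, from 0.28 to 0.31 for miR-30d and from -0.050 to 0.14 for miR-30e. In 4 of the 5 members the dimmest probe gave the higher ratio, and miR-30d was the exception. The same was seen in 67.6% of the 244 miRNAs for which both arrays detected several probes. Its part in the members' ratios was not tested.

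Set in order of their ratios, the guide strands ran from miR-30e through miR-30a, miR-30b and miR-30d to miR-30c, over a range of 0.44 on the log2 scale, or 1.35-fold. A factor common to an array cancels in a difference between members. miR-30c exceeded its neighbour miR-30d by 0.14 ± 0.036 (SE over spots), and the probes of miR-30c did not overlap with those of any other member. miR-30d and miR-30b differed by 0.047 ± 0.041 and miR-30b and miR-30a by 0.10 ± 0.057, within 2 spot errors, and their probes overlapped. miR-30a exceeded miR-30e by 0.14 ± 0.058, again with overlapping probes. Of the 10 pairs of members 8 differed by more than 2 spot errors, and in 6 the probes did not overlap. Such counts were not made for pairs of other miRNAs. The lower and upper quartiles of the log2 ratio over all miRNAs detected on both arrays were -0.14 and 0.22. Whether the members differed more from each other than other miRNAs do was thus not tested. The scanner software gives its own, wider error for the total signal of each miRNA. With it the total signals of 4 of the 10 pairs differed by more than 1 error of the difference and 0 by more than 2, and the largest difference, miR-30c over miR-30e, was 0.44 ± 0.23.

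**Figure D2:**
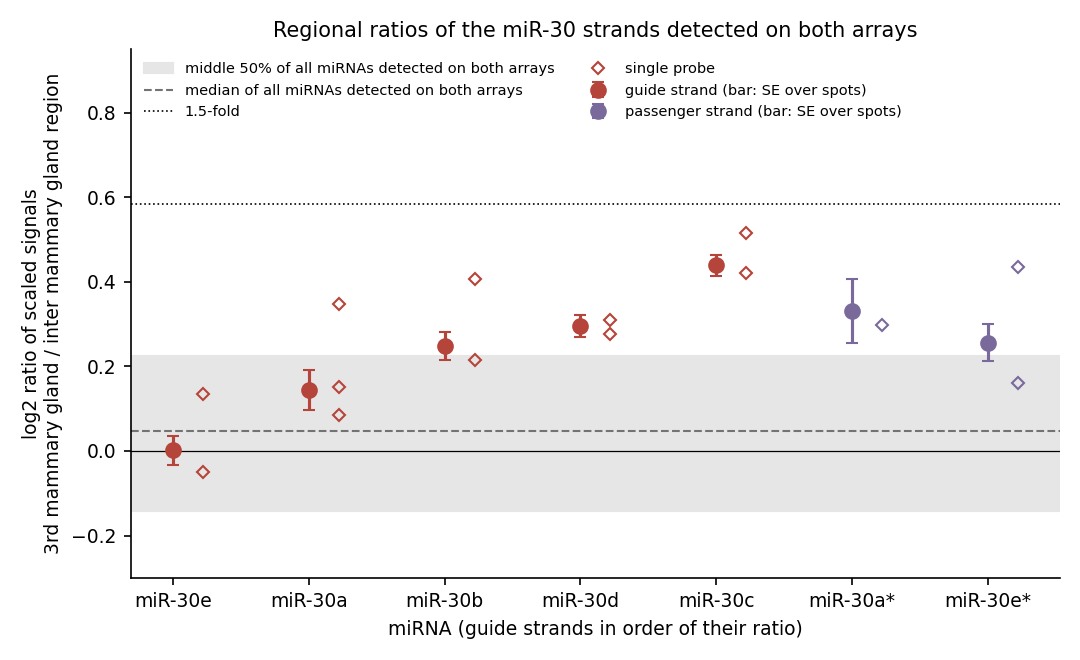
The log2 ratio of scaled signals, gland over flank, for the 5 miR-30 guide strands in order and for the 2 passenger strands detected on both arrays, with SE over spots as bars and single probes detected on both arrays as diamonds; the grey band holds the middle 50% of the 284 miRNAs detected on both arrays, the dashed line is their median and the dotted line is 1.5-fold. The guide strands run from 0.0012 (miR-30e) to 0.44 (miR-30c), and no filled point reaches the dotted line.

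Read by gene pair, the members of chromosome 15 lay close together, and the others did not. miR-30b and miR-30d had log2 ratios of 0.25 and 0.30, a difference near the spot error. miR-30b and miR-30a, of different chromosomes, also lay within 2 spot errors (0.10 ± 0.057). On chromosome 1 the shared guide miR-30c exceeded miR-30a by 0.29 ± 0.054, and on chromosome 4 it exceeded miR-30e by 0.44 ± 0.043. With the wider error of the scanner software these differences were 0.29 ± 0.21 and 0.44 ± 0.23. Both of these pairs hold miR-30c, the highest member of the family. Since miR-30c is made from both chromosomes, its signal cannot be divided between them.

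The passenger strands can tell the 2 miR-30c genes apart, because they differ in sequence. They are shown with bases 2 to 8 in capitals:
miR-30c-1*: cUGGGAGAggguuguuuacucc
miR-30c-2*: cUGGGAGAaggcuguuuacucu
miR-30a*: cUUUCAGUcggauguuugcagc
miR-30e*: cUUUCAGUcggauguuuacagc
miR-30c-1* and miR-30c-2* differ by G9A, U12C and C22U, and miR-30a* and miR-30e* by G18A alone, each counted from the 5′ end with the first-named strand's base first. Of the 5 passenger strands of the family on the arrays, miR-30a* and miR-30e* were detected in both tissues. miR-30c-1*, from chromosome 4, had 0 of 20 spots well above background in either tissue, with mean signals of 7.46 ± 0.887 in the gland and 5.50 ± 0.554 in the flank (SE over 20 spots in each). miR-30c-2*, from chromosome 1, had 0 of 19 and 0 of 20 spots, with 13.4 ± 1.26 and 9.15 ± 0.967. Single spots of the negative controls averaged 3.81 ± 5.28 (SD over 432 spots) in the gland and 2.23 ± 5.07 (SD over 428 spots) in the flank. The brightest probe of miR-30c-1* averaged 18.0 ± 4.88 in the gland and 10.3 ± 3.05 in the flank (SD over 5 spots in each). With no spot well above background, the miR-30c signal was not assigned to either gene. miR-30b*, from chromosome 15, likewise had 0 of 20 such spots in either tissue, at 10.9 ± 0.676 and 10.0 ± 0.934. miR-30d* was not among the miRNAs of the arrays under this name.

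miR-30a* had a signal of 44.4 ± 1.20 in the gland and 32.3 ± 1.46 in the flank (SE over 20 spots in each), with 19 and 13 of 20 spots well above background. Its log2 ratio was 0.33 ± 0.076 over both probes, of which the dimmer had only 3 of 10 spots well above background in the flank. The other probe alone gave 0.30 ± 0.097. miR-30e* had 87.3 ± 1.80 and 66.8 ± 1.47 (SE over 18 spots in each), all well above background, and a log2 ratio of 0.26 ± 0.043. The difference from the guide of the same hairpin was 0.19 ± 0.090 (SE over spots) for miR-30a* over miR-30a, with overlapping probes, and 0.26 ± 0.055 for miR-30e* over miR-30e, whose probes did not overlap. With the wider error of the scanner software these were 0.18 ± 0.30 and 0.26 ± 0.25, so that the first was within its error. A passenger strand had the higher ratio in 72.4% of the 29 guide and passenger pairs detected on both arrays. After another background correction, normexp with an offset, the median of both passenger strands was 0.095 in place of 0.29, and miR-30a* lay below miR-30a by a difference of -0.046. The offset of 50 added to every signal is larger than the miR-30a* signals given above. Such a constant pulls the ratios of dim miRNAs toward 0, and its part in this change was not tested.

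miR-384-5p, which shares the seed of the family but little else, was not well above background in 20 of 20 spots on each array, with signals of 8.47 ± 1.17 in the gland and 3.21 ± 1.44 in the flank. It is shown for its common start with the family:
miR-384-5p: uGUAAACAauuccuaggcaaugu
It shares its first 8 bases with miR-30a. The other strand of its hairpin, miR-384-3p, was also not well above background in any of 20 spots on either array, at 3.86 ± 0.947 and 0.711 ± 0.633.

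Against all miRNAs the family lay somewhat to the side of the gland. The median log2 ratio of the 5 guide strands was 0.25, and that of the 284 miRNAs detected on both arrays was 0.048. The middle 50% of these lay from -0.14 to 0.22. Of the guide strands 4 were above the median of all and 3, miR-30b, miR-30c and miR-30d, above the upper quartile, and miR-30e was below the median. In order from the highest ratio miR-30c was number 18 of 284, miR-30d 43, miR-30b 65, miR-30a 106 and miR-30e 164. No test goes with this position, since either tissue has a single array.

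**Figure D3:**
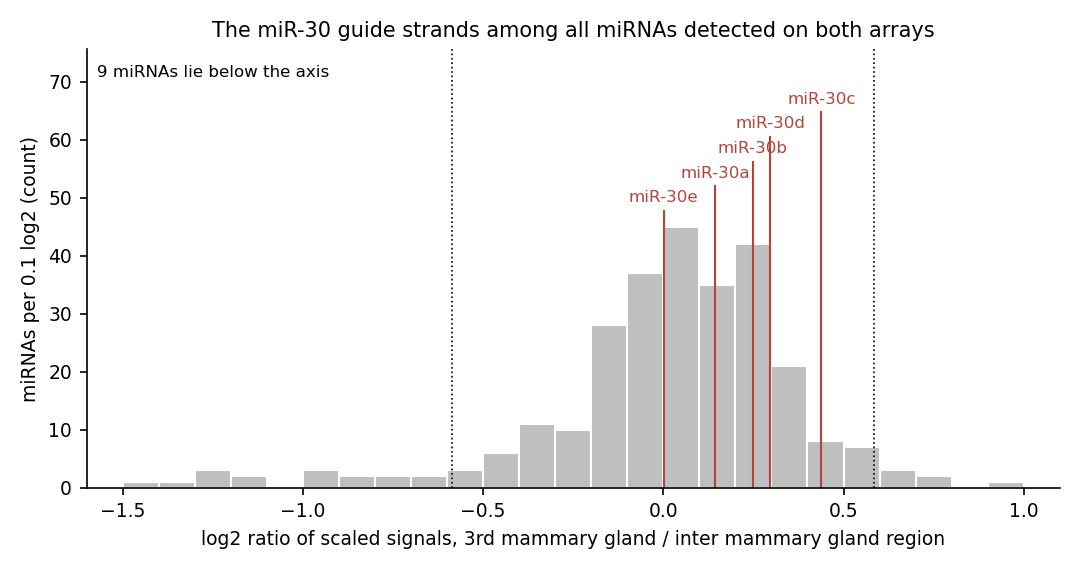
The number of miRNAs in steps of 0.1 of the log2 ratio of scaled signals, gland over flank, for the miRNAs detected on both arrays, with the 5 miR-30 guide strands as red lines and 1.5-fold either way as dotted lines; 9 miRNAs lie to the left of the axis. All 5 red lines lie between the dotted lines, and miR-30c stands toward the right edge of the main body.

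The scaling moved the ratios of all miRNAs together. With the 75th percentile of all probes as divisor the median of all was 0.21, and miR-30c was 1.51-fold higher in the gland, past the threshold (1.52-fold with the unscaled total signals of the scanner software), beside 19 of the 284 miRNAs higher and 22 lower in place of 6 and 26. Another divisor moves all miRNAs alike, so it cannot change the order of the members or their distance from the median of all. Of the 15 alternatives 7 could change the differences between members and were not repeats of one another. The median of the guide strands lay 0.20 above that of all miRNAs in the setting used, from 0.18 to 0.23 above in 6 of these 7, and 0.12 above after quantile normalization. miR-30c had the highest and miR-30e the lowest ratio of the family in all 7. miR-30e was below the median of all miRNAs in the 7, and the other members were above it in 6. The exception was quantile normalization, in which miR-30a lay at -0.036.

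**Figure D4:**
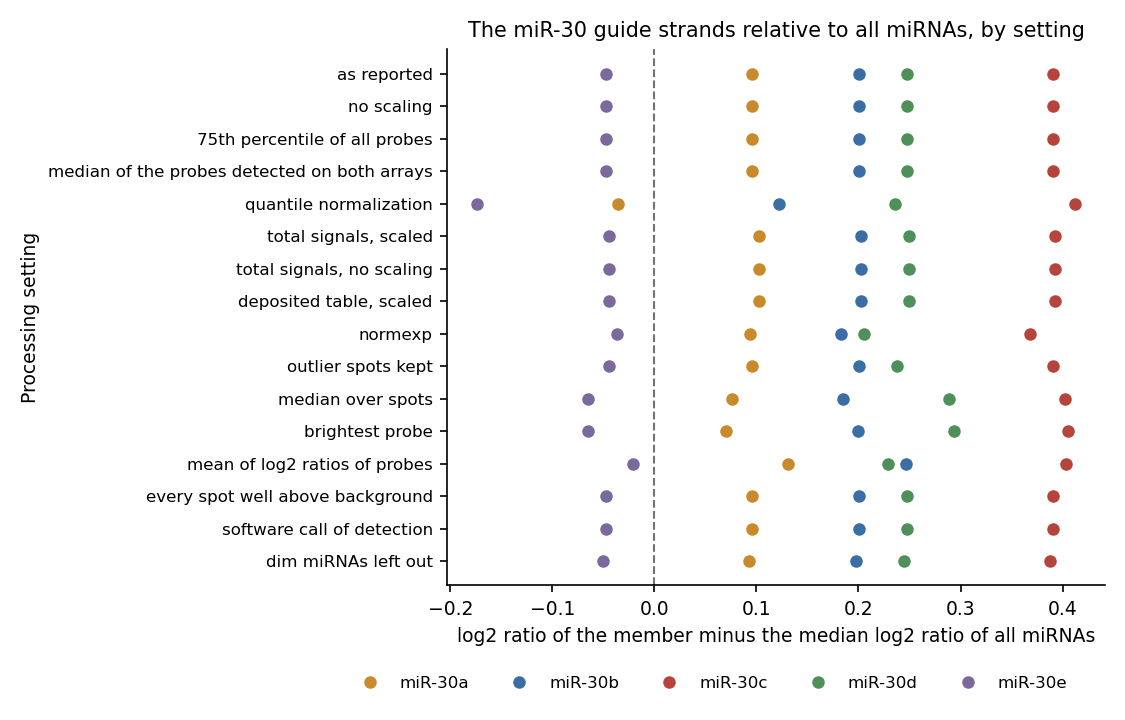
Each row is 1 way of processing the arrays and each point 1 miR-30 guide strand, placed by its log2 ratio, gland over flank, minus the median log2 ratio of all miRNAs detected on both arrays. miR-30c stays between 0.37 and 0.41 and miR-30e below 0 throughout, and quantile normalization sets miR-30a below 0.

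The let-7 family with miR-98, another large family of near-identical guides, known for holding back growth and marking differentiation, had 9 of 9 members detected in both tissues. Their log2 ratios ran from -0.46 to 0.24 with a median of -0.050, and 2 of 9 were above the median of all miRNAs, where 4 of 5 were in the miR-30 family. Of the miR-29 family, regulators of collagen, only miR-29c of 3 members was detected on both arrays, at -0.019 ± 0.060. The difference between these families and miR-30 was not tested. The miRNAs outside the family with a ratio nearest to its median of 0.25 were miR-540-3p (0.25 ± 0.17), miR-130b* (0.25 ± 0.055) and let-7e (0.24 ± 0.037). With 2 arrays this ratio is the whole pattern. miR-540-3p lay near the floor, with mean signals of 12.7 in the gland and 9.80 in the flank. The brightest negative control spots had 17.3 and 19.2.

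Marker miRNAs of cell types were also read, and of these lists only that of striated muscle held members past 1.5-fold. Those of striated muscle (miR-1, miR-133a, miR-133b and miR-206) were lower in the gland in 4 of 4 cases by at least 1.5-fold, with log2 ratios from -1.43 to -1.12, and their summed scaled signal was 2.09 in the gland and 5.02 in the flank. Of all 284 miRNAs detected on both arrays, 9.15% were lower and 2.11% higher by at least 1.5-fold. The 7 epithelial markers (the miR-200 family with miR-141 and miR-429, miR-203 and miR-205) were all detected on both arrays, with ratios from -0.31 to 0.51, a median of 0.34 and sums of 13.9 and 13.3. The 3 mesenchymal ones (miR-199a-3p, miR-199a-5p and miR-214) had ratios from 0.22 to 0.32 and sums of 35.1 and 28.8. Of the 5 blood markers 4 were detected on both arrays, from -0.11 (miR-223, of myeloid cells) to 0.44 (miR-451, of red cells), with sums of 7.87 and 5.98. Both vessel markers, the strands of miR-126, were detected on both arrays at 0.046 and 0.21, with sums of 2.75 and 2.64. Of the neural ones only miR-128 was detected, at -0.57, and miR-9 and miR-124 were not detected on either array. Within the epithelial list miR-203 (-0.31) and miR-205 (-0.021) were not higher in the gland, and the 5 others were at 0.21 to 0.51. The epithelial, mesenchymal, vessel and blood medians were 0.34, 0.26, 0.13 and 0.047, and the muscle median was -1.24. A ratio above 0 was common, in 57.7% of the 284 miRNAs detected on both arrays. The median of all these miRNAs was 0.048, and the blood median was not above it. The part of tissue makeup in the miR-30 ratios was not tested.

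**Figure D5:**
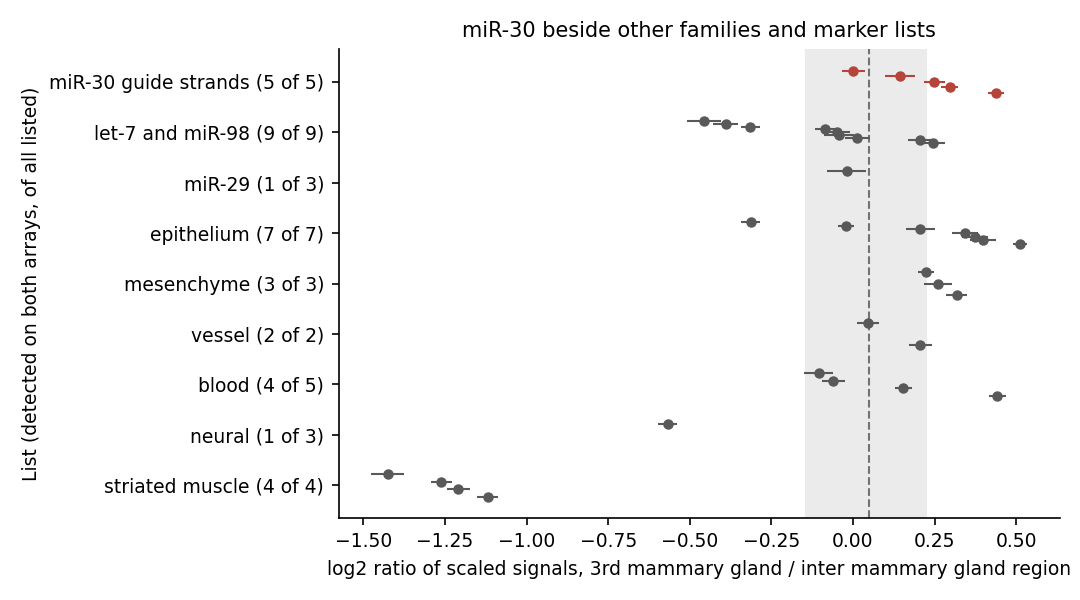
The log2 ratio of scaled signals, gland over flank, for each miRNA detected on both arrays in the miR-30 guide strands (red), in the let-7 and miR-29 families and in the marker lists, with SE over spots as bars; the grey band and dashed line are the middle 50% and the median of all miRNAs detected on both arrays. The miR-30 points lie from 0.0012 to 0.44, where points of the let-7, epithelial, mesenchymal, vessel and blood lists also lie. The muscle points lie from -1.43 to -1.12.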

How the data were processed

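The study read both arrays in 1 scan of 1 slide. Feature Extraction (version 10.7.3.1, per the file headers) was used by the authors, who deposited background-subtracted spot intensities on a linear scale, with no normalization between them. The values of the deposited table matched the intensity that the software totals over the probes of a miRNA in 696 of 696 cases (relative tolerance 0.0001), with 0.1 standing in for those not called detected. GeneSpring GX is named in the methods, without the signal or scaling used.

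Control spots were left out here, as were outlier spots (1.67% in the gland, 2.51% in the flank). Spots were averaged per probe, probes were scaled by the 75th percentile among those detected on both arrays, and then averaged per miRNA. Detection of a probe required over 50% of its spots to be well above background, and that of a miRNA required 1 such probe. The SE of a log2 ratio was propagated from the SDs over spots, with the divisors taken as fixed. A call means a fold of at least 1.5. Of the miRNAs, 296 were detected in the gland, 300 in the flank and 284 in both. The number of arrays limits the precision.

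The named miRNAs were the 5 guide strands, the passenger strands, miR-384, the members of the family and marker lists, and the 3 miRNAs nearest in ratio. Members and lists were chosen with earlier results of these data known. Sequences came from RefSeq (GRCm38.p6). The steps were tested on simulated data. Alternatives covered the scaling, signal column, background correction, outlier spots, summary of spots and probes, detection, dim miRNAs and threshold. normexp was run on the median pixel signal with an offset of 50. Python 3.11.15, numpy 2.4.6, pandas 2.3.3, matplotlib 3.10.9, R 4.3.3 and limma 3.58.1 were used.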

Additional observations from a re-analysis of the deposited data

How the results depend on the processing

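No paired analysis was possible because either tissue was hybridized to a single array. Medians, ranges and counts are given here where they moved by more than their spread over spots, and the cause was not tested except where the setting fixes it. The medians of the log2 ratio (gland over flank) are those of the guide strands, of the passenger strands and of all miRNAs detected on both arrays, in this order, and were 0.25, 0.29 and 0.048 as reported. They were 0.38, 0.42 and 0.18 with no scaling, and 0.41, 0.45 and 0.21 when scaled by the 75th percentile of all probes. Scaling by the median in place of the 75th percentile gave 0.37, 0.41 and 0.17, and quantile normalization gave 0.29, 0.45 and 0.17. The software's total signals gave 0.34, 0.39 and 0.14 after scaling (the deposited table gave the same) and 0.41, 0.46 and 0.21 before it. Requiring each spot of a probe to pass the background flag gave 0.19, 0.23 and -0.013. The guide and passenger medians were 0.21 and 0.095 after normexp and 0.21 and 0.23 with the brightest probe, and the guide median was 0.29 with the mean of the probes' log2 ratios. The range among the guide strands, 0.44, was 0.59 after quantile normalization and from 0.40 to 0.59 over the 15 alternatives. The number of guide strands at least 1.5-fold higher, 0 as reported, was 1, miR-30c, when scaled by the 75th percentile of all probes, for unscaled total signals, and at a threshold of 25% higher, and 0 under the other alternatives. At that lower threshold 38 of the 284 miRNAs were higher and 43 lower, at 2-fold 0 and 16, after normexp 2 and 18, with no scaling 15 and 23 (as when scaled by the median), after quantile normalization 13 and 22, with the mean of the probes' log2 ratios 12 and 27, and for total signals 14 and 24 when scaled and 20 and 21 when not. Where the software itself called detection, 13 of 323 were higher and 33 lower. With dim miRNAs left out 3 of 142 were higher and 13 lower, and no passenger strand was kept. The number of guide strands lower was 0 under every alternative. Of the 15 alternatives 7 could change the order of the members and were not repeats. It was kept in 6 of these, and with the mean of the probes' log2 ratios miR-30b and miR-30d changed places. Of 86 values of single members, single probes included, 56 moved by more than their spread over spots. Over the 15 alternatives the log2 ratio ran from 0.083 to 0.31 for miR-30a, 0.19 to 0.41 for miR-30b, 0.38 to 0.60 for miR-30c, 0.23 to 0.46 for miR-30d and -0.060 to 0.16 for miR-30e.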
